A study of Drosophila melanogaster with 14 samples.

Results

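The RNA of genes that carry out DNA replication and mitosis was examined in ML-DmBG3-c2 (BG3) cells, a line of Drosophila melanogaster established from the larval central nervous system. A list of 46 gene symbols defined the group, and 45 of them were found by exact symbol among the 7624 genes of the authors' deposited table. The one symbol not found was fzr. By role, 13 of the 45 act in the licensing of replication origins, 5 at the fork or in nucleotide supply, 7 in the control of G1 and S phase, 11 in the entry into and exit from mitosis, 5 at the checkpoint and centromere and 4 on the spindle and in cytokinesis. The study treated BG3 cells with double-stranded RNA against subunits of Polycomb Repressive Complex 1 (PRC1), a chromatin complex known for silencing developmental genes. The 14 libraries of ribosomal-RNA-depleted total RNA comprised 6 of the Mock treatment, 3 of treatment against Polyhomeotic (Ph), 3 against Sex combs extra (Sce) and 2 against Polycomb (Pc). All groups were of the same line, grown in Schneider's medium with serum and insulin; the labels do not say what the mock treatment contained, how long any treatment lasted or whether replicates were separate cultures.

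Cells prepare origins for replication in G1, when the origin recognition complex and the loader Dup (Cdt1) place the Mcm2 to Mcm7 helicase on DNA, and Geminin blocks that loading later in the cycle. Cyclin E with its kinase starts S phase, E2f and Dp activate genes needed for DNA synthesis, and Rbf restrains them. Mitosis begins when String (Cdc25) activates the Cdc2 kinase bound to its cyclins, and it ends when the anaphase-promoting complex with Fizzy (Cdc20) destroys cyclins and Pimples (securin), freeing separase. RNA levels of many of these genes follow the share of cells that are cycling.

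Per gene, the authors gave a mean signal for each labelled group, ratios of the treated groups to Mock, p-values and q-values. A gene is said to have risen or fallen only where q was under 0.05. Single libraries have no values here, so means carry no error, the depth is unknown, and the 3 total RNA comparisons share the Mock libraries. The column sums of the 4 groups differed by at most 0.021%. Total RNA ratios are thus relative to a nearly equal sum, and a change shared by all genes would not show in them. The RNA of each targeted gene stood above Mock in its own group, with ratios of 8.64 (ph-p, q = 0.017), 8.09 (ph-d, q = 0.028), 27.0 (Sce, q = 0.198) and 21.5 (Pc, q = 0.13) in the authors' deposited table. Those of Sce and Pc did not pass. The ratios show no depletion at the RNA level, although the signal may include reads of the double-stranded RNA itself, so the groups are called by their labels. Of 11 neuron marker symbols 2 were listed, elav and cpx, while others such as brp and Syt1 were not listed. Of 9 neural precursor markers 5 were listed, and their summed mean was 7775 in Mock, 87892 (Ph), 15897 (Sce) and 61433 (Pc). The summed means of the 7 listed glial markers were 337271, 603024, 343482 and 408414 in the same order, although moody, Gs2 and Eaat1 among them had ratios of 0.774, 0.644 and 0.674 with Ph in the authors' deposited table. The summed means were 276590, 189464, 271166 and 216363 for the 6 listed hemocyte markers and 56688, 175735, 60901 and 70145 for the 4 listed muscle markers. They were 175300, 347153, 247767 and 354182 for the 5 listed epithelial markers, 65144, 37077, 35210 and 41259 for the 2 neuron markers and 14810, 9901, 15991 and 6139 for the 2 listed germ line markers. The neuron marker cpx had authors' ratios of 0.332, 0.396 and 0.447 with Ph, Sce and Pc, where elav had 1.23, 0.941 and 1.15. Among the hemocyte markers, srp, Pxn and crq had ratios under 1 with Ph and Pc, where lz, eater and Hml had ratios over 1. Most of the muscle sum with Ph was sls, at 15469 in Mock and 113251 with Ph, which did not pass (authors' q = 0.09). Of the other muscle markers Mef2 had an authors' ratio of 1.24 with Ph, and twi (30.1) and Act57B (7.43) had lower means than sls. Markers that rose with Ph numbered 3 (neural precursor), 2 (glia), 1 (muscle) and 2 (epithelium). With Pc they numbered 3 (neural precursor), 1 (glia) and 2 (epithelium), and with Sce 0. None fell. Every listed marker had a mean of at least 798 in some group. SoxN (35 in Mock), klu (192) and twi (236), which rose with Ph, reached that level only in treated groups. The other markers that rose lay above it in Mock (lowest pros, 970). Markers low in every group may be unlisted, so the counts do not show how common rises were among all markers named. Of all genes 3.52% rose with Ph, 3.04% with Pc and 0.236% with Sce, and 0.367%, 0.144% and 0.0131% fell. What these marker changes contribute to the values below was not tested.

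In total RNA the replication and mitosis genes stayed close to their Mock level, and 1 of the 45 passed in any of the 3 comparisons. That gene was fzy, the activator of the anaphase-promoting complex, which rose in the group labelled Pc. With Ph, 0 of the 45 rose and 0 fell, where 3.52% of all 7624 genes rose and 0.367% fell. With Sce, 0 rose and 0 fell, against a background of 0.236% and 0.0131%. With Pc, 1 rose and 0 fell, against 3.04% and 0.144%. At an unadjusted p under 0.05 in the authors' deposited table, members counted 0 higher and 0 lower with Ph, 3 higher and 0 lower with Sce, and 3 higher and 0 lower with Pc; of all genes 13.9%, 9.27% and 11.8% were higher and 4.7%, 2.3% and 2.62% lower at that level. The sources used here do not give the authors' test. These shares of members are at or under the background. That background includes genes listed only through a treated group, such as SoxN, where the lowest group mean of any member was 3271. Among the 3812 genes with a mean level at or above the median, 16.7% (Ph), 12.5% (Sce) and 12.6% (Pc) were higher at that unadjusted p.

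Ratios lay within 1.5-fold of Mock for 42 of the 45 genes with Ph, 40 with Sce and 41 with Pc, and for 36 of them in all 3 comparisons. Ratios were under 1 for 18 members with Ph, 14 with Sce and 20 with Pc, and for 44.3%, 45.1% and 46.3% of all genes. Of all listed genes 72.5% (Ph), 78.4% (Sce) and 74.4% (Pc) lay within that band. The median log2 ratio of the members was 0.05 with Ph, 0.19 with Sce and 0.03 with Pc, where the medians over all genes were 0.07, 0.06 and 0.05. The interquartile range of the members' log2 ratios was 0.39 (Ph), 0.41 (Sce) and 0.49 (Pc), where all genes spanned 0.65, 0.62 and 0.67. The 9 members outside the band in at least 1 comparison were geminin, cid, pim, CycE, fzy, thr, Mcm10, stg and CycB3. A bulk measurement does not tell a smaller share of cells in a cycle phase from less RNA per cell.

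**Figure D1:**
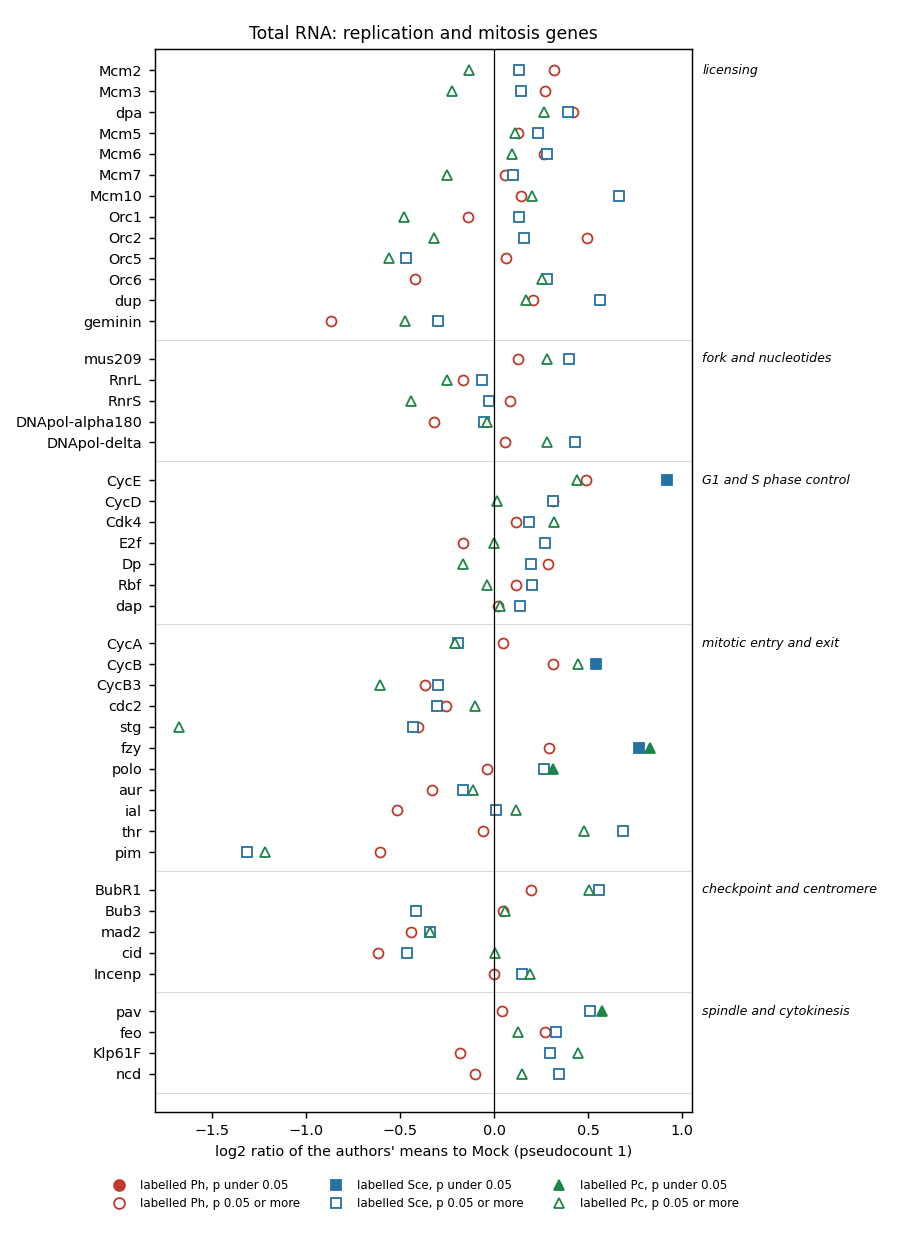
Each row is a gene and each symbol its log2 ratio of the authors' mean signal to Mock in total RNA (pseudocount 1), with circles for the group labelled Ph, squares for Sce and triangles for Pc; filled symbols have an unadjusted p under 0.05 and italic labels give the role. Most symbols lie near 0, and stg, pim, CycE and geminin each have a symbol farther from it than any of fzy, the gene that rose with Pc.

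The 6 subunits of the Mcm helicase had total RNA ratios near 1 and did not pass. Mcm2 had an authors' mean of 65690 in Mock, 82068 with Ph, 71973 with Sce and 59946 with Pc. The authors' mean of dpa (Mcm4) was 58549 in Mock, 78346 with Ph, 76898 with Sce and 70271 with Pc, so each treated group was above Mock. Mcm7 stood at 70159, 73057, 75270 and 59041 in the same order. All 6 ratios were over 1 with Ph (1.04 for Mcm7 to 1.34 for dpa) and with Sce (1.07 for Mcm7 to 1.31 for dpa), and 3 of 6 were under 1 with Pc (lowest Mcm7, 0.842), in the authors' deposited table. Mcm3, Mcm5 and Mcm6, the remaining subunits, lay inside those ranges.

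Mcm10, which helps activate the loaded helicase, had authors' means of 36453 in Mock, 40279 with Ph, 57748 with Sce and 41867 with Pc. Its ratio with Sce was 1.58 (q = 0.269) in the authors' deposited table. The 4 origin recognition genes differed among themselves: Orc2 had the highest ratio of all members with Ph, 1.41 (q = 0.357), and Orc5 the lowest of the licensing genes with Sce and Pc, 0.722 (q = 0.4) and 0.678 (q = 0.481), in the authors' deposited table. Orc2 had authors' means of 11164 in Mock, 15718 with Ph, 12441 with Sce and 8935 with Pc. In that order Orc5 stood at 12005, 12563, 8665 and 8143 and Orc1 at 17389, 15777, 19032 and 12486, so that Pc was the lowest group for all 3 genes. Orc1 had ratios of 0.907, 1.09 and 0.718 and Orc6 of 0.746, 1.22 and 1.19 for Ph, Sce and Pc in the authors' deposited table, with q-values of 0.434 or more. None of these ratios passed.

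The loading factor gene dup and its inhibitor gene geminin had ratios on opposite sides of 1. For dup the authors' mean was 36198 in Mock, 41751 with Ph, 53442 with Sce and 40751 with Pc. For geminin it was 52905 in Mock and lower in each treated group, at 28969 with Ph, 43081 with Sce and 38086 with Pc. The geminin ratio of 0.548 with Ph had p = 0.07 and q = 0.185 in the authors' deposited table, the smallest p of any member in that comparison. The dup ratio farthest from 1 was 1.48 with Sce (q = 0.321) in the authors' deposited table. Neither gene passed.

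Genes of the fork and of nucleotide supply lay within 1.5-fold of Mock in every total RNA comparison. For mus209, which encodes the sliding clamp PCNA, the authors' mean was 65342 in Mock, 71447 with Ph, 86024 with Sce and 79446 with Pc. The ribonucleotide reductase genes RnrL and RnrS, whose product makes deoxyribonucleotides, ranged in ratio from 0.737 (RnrS, Pc) to 1.06 (RnrS, Ph) in the authors' deposited table. For RnrS the authors' mean was 80015 in Mock, 84750 with Ph, 78381 with Sce and 58949 with Pc, the lowest being Pc. The catalytic subunit genes of the replicative polymerases, DNApol-alpha180 and DNApol-delta, ranged from 0.802 (DNApol-alpha180, Ph) to 1.35 (DNApol-delta, Sce) in the authors' deposited table. DNApol-delta had authors' means of 25476 in Mock, 26523 with Ph, 34379 with Sce and 30973 with Pc, and DNApol-alpha180 had 37795, 30318, 36464 and 36806 in that order, lowest with Ph. The smallest q among these 5 genes was 0.336 in the authors' deposited table, for mus209 with Sce.

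Among the genes that control G1 and S phase, CycE had the highest ratio of any member with Sce. Its authors' mean was 31854 in Mock, 44735 with Ph, 60322 with Sce and 43299 with Pc, so every treated group stood above Mock. The ratio of 1.89 with Sce had p = 0.037 and q = 0.246 in the authors' deposited table and did not pass; the ratios with Ph and Pc were 1.40 (q = 0.34) and 1.36 (q = 0.495) there. For the G1 cyclin and kinase genes CycD and Cdk4 the authors' deposited table gives ratios from 1.01 (CycD, Pc) to 1.25 (Cdk4, Pc). The authors' mean of CycD was 23842 in Mock, 29633 with Ph, 29601 with Sce and 24073 with Pc, and that of Cdk4 was 10509, 11382, 11962 and 13086 in the same order. E2f, which had means of 108854, 97034, 131468 and 108741, its partner Dp and the repressor gene Rbf ranged from 0.89 (Dp, Pc) to 1.22 (Dp, Ph) in the authors' deposited table. The gene dap, an inhibitor of Cyclin E kinase, had ratios of 1.02 (Ph), 1.10 (Sce) and 1.02 (Pc) in the authors' deposited table.

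Genes of mitotic entry and exit held both the highest and the lowest ratio of all members with Pc, and the one call was among them. For fzy the authors' mean was 53144 in Mock, 65067 with Ph, 90696 with Sce and 94304 with Pc. The groups labelled Sce and Pc were the high ones, and Ph lay between them and Mock. The ratio with Pc was 1.77 (p = 0.001, q = 0.037) in the authors' deposited table, while that with Sce, 1.71 (p = 0.011, q = 0.209), and that with Ph, 1.22 (q = 0.283), did not pass there. Whether the 3 labelled groups differ from one another was not tested. The table also lists rap, an older symbol of fzr according to RefSeq, which encodes the activator that follows Fizzy at the end of mitosis; it is no member by exact symbol. Its authors' mean was 17997 in Mock, 19899 with Ph, 23855 with Sce and 28833 with Pc, and the ratio with Pc was 1.60 (p = 0.009, q = 0.103) in the authors' deposited table.

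Securin and separase, the pair that controls the parting of sister chromatids, had ratios on opposite sides of 1 with Sce and Pc. The securin gene pim had an authors' mean of 10266 in Mock, 6739 with Ph, 4120 with Sce and 4406 with Pc. Every treated group was under Mock, and the ratio with Sce was 0.401 (p = 0.051, q = 0.264) and with Pc 0.429 (p = 0.121, q = 0.338) in the authors' deposited table. The separase gene thr stood at 23138 in Mock, 22182 with Ph, 37288 with Sce and 32230 with Pc. Its ratio was 1.61 with Sce (p = 0.063, q = 0.267) and 1.39 with Pc (q = 0.354) in the authors' deposited table. Neither gene passed in any comparison.

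The phosphatase gene stg, which triggers mitotic entry, had the lowest ratio of any member with Pc. Its authors' mean was 107044 in Mock, 80834 with Ph, 79469 with Sce and 33468 with Pc. The ratio of 0.313 with Pc had p = 0.1 and q = 0.311 in the authors' deposited table, where Pc rests on 2 libraries. The kinase that String activates, cdc2, had ratios of 0.837 (Ph), 0.81 (Sce) and 0.931 (Pc) in the authors' deposited table.

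The mitotic cyclin genes differed in direction. For CycB the authors' mean was 99684 in Mock, 123785 with Ph, 145237 with Sce and 135953 with Pc, with a ratio of 1.46 for Sce (p = 0.029, q = 0.241) in the authors' deposited table. For CycB3 it was 20706 in Mock and 16049, 16847 and 13591 in the same order, with a lowest ratio of 0.656 for Pc (q = 0.496) in the authors' deposited table. CycA lay between them, with ratios of 1.03, 0.875 and 0.866 in the authors' deposited table. Of the mitotic kinase genes, polo had a ratio of 1.24 with Pc (p = 0.043, q = 0.219), and ial, which encodes Aurora B, one of 0.699 with Ph (p = 0.095, q = 0.212), in the authors' deposited table. polo had authors' means of 108343 in Mock, 105549 with Ph, 130330 with Sce and 134652 with Pc, and ial had 42960, 30011, 43196 and 46502 in the same order, with Ph the lowest group for both. For the Aurora A gene aur the authors' deposited table gives ratios from 0.795 (Ph) to 0.926 (Pc).

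Among checkpoint and centromere genes, BubR1, a kinase-related protein of the spindle checkpoint, had authors' means of 38734 in Mock, 44425 with Ph, 56972 with Sce and 54986 with Pc. Its partners Bub3 and mad2 ranged from 0.735 (mad2, Ph) to 1.04 (Bub3, Pc) in the authors' deposited table. For Bub3 the authors' mean was 58567 in Mock, 60553 with Ph, 43869 with Sce and 61008 with Pc, and for mad2 it was 13640, 10030, 10762 and 10775 in the same order. Sce was the lowest group for Bub3, and all treated groups were under Mock for mad2. The gene of the centromeric histone, cid, had an authors' mean of 5030 in Mock, 3271 with Ph, 3650 with Sce and 5041 with Pc. Incenp, the scaffold of Aurora B, had ratios of 1.00, 1.11 and 1.14 for Ph, Sce and Pc in the authors' deposited table. Its authors' mean was 74713 in Mock, 74730 with Ph, 82911 with Sce and 85232 with Pc. No gene of this group passed, and the smallest q was 0.287 in the authors' deposited table (Incenp, Sce).

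The 4 genes of the spindle and of cytokinesis all had ratios over 1 with Sce and with Pc. For pav, a kinesin of the central spindle, the authors' mean was 66348 in Mock, 68395 with Ph, 94356 with Sce and 98736 with Pc. Its ratios were 1.42 with Sce (p = 0.053, q = 0.264) and 1.49 with Pc (p = 0.031, q = 0.188) in the authors' deposited table. The microtubule bundling gene feo and the spindle motor genes Klp61F and ncd had ratios between 1.23 and 1.27 with Sce and between 1.09 and 1.37 with Pc in the authors' deposited table. Klp61F had authors' means of 191219 in Mock, 168464 with Ph, 235000 with Sce and 260932 with Pc. In the same order feo stood at 87513, 105444, 109782 and 95703 and ncd at 111169, 103401, 141017 and 123237, so that for Klp61F and ncd the Ph group alone was under Mock. With Ph, 2 of the 4 ratios were under 1, the lowest being 0.881 (Klp61F) in the authors' deposited table.

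**Figure D2:**
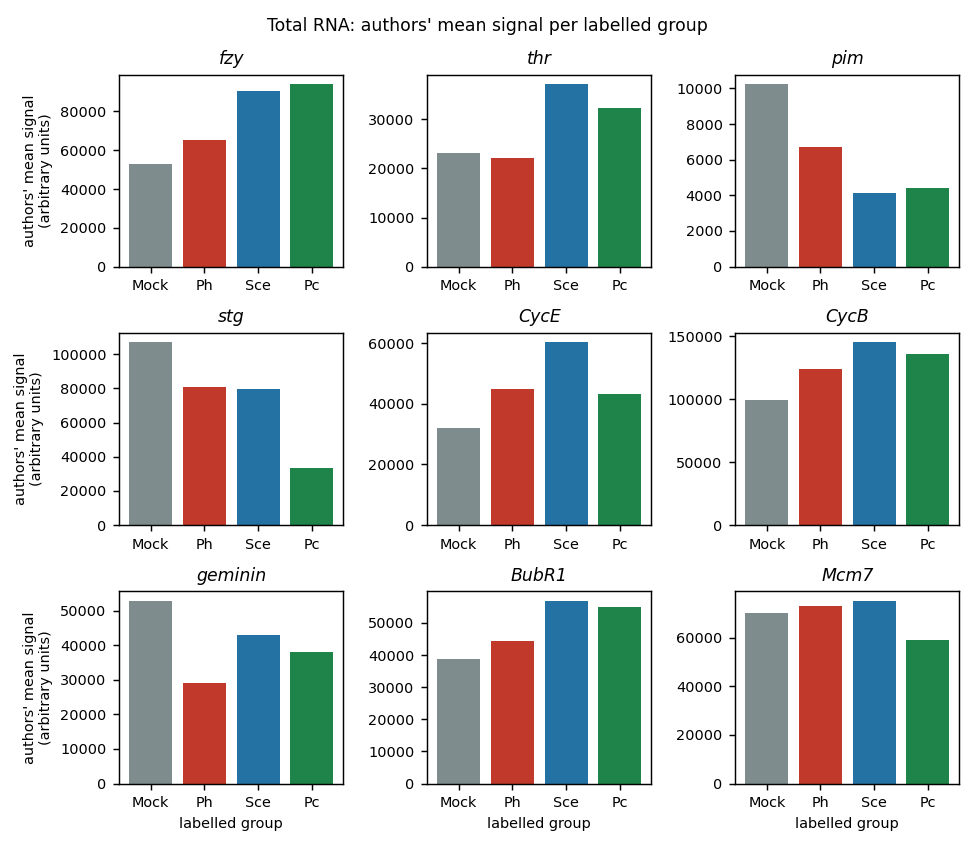
Bars give the authors' mean signal (arbitrary units) for each labelled group in total RNA, 1 panel per gene with its own axis from 0; no error bars are shown because single libraries have no values here. For fzy, CycB, CycE and BubR1 every treated group stands above Mock, and for pim, stg and geminin every treated group stands below it.

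A second set of columns in the table is marked nt.gene, a quantity that the header and the labels leave unexplained. It holds ratios, p-values and q-values for Ph and Sce against Mock. The 14 labelled libraries are of total RNA, so the number of libraries behind the nt.gene values is unknown. Nearly all nt.gene ratios of these genes with Ph were under 1. With Ph, 42 of 45 members had a ratio under 1, against 47.5% of all genes, and the median ratio was 0.663 where that of all genes was 1.02. The median log2 ratio was -0.59, with an interquartile range from -0.81 to -0.37; for all genes the median was 0.03. None passed: the count at q under 0.05 (authors' deposited table) was 0 lower and 0 higher, where 0.787% and 1.69% of all genes were. At an unadjusted p under 0.05 in the authors' deposited table, 19 of the 45 were lower and 0 higher, where 6.66% and 9.82% of all genes were; the 19 make up 42.2% of the members. Within 1.5-fold of Mock lay 22 members with Ph and 36 with Sce, and 70.3% and 78.2% of all genes. No single gene therefore passed, while the share of members at the unadjusted level was above the background. The members share libraries and are not independent replicates, so this share is a description and was not tested.

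All 6 Mcm helicase subunits had nt.gene ratios with Ph under the members' median of 0.663, and Mcm7 and Mcm2 were among the 5 lowest. The ratios were 0.448 for Mcm7 (p = 0.019, q = 0.131), 0.484 for Mcm2 (p = 0.017, q = 0.121) and 0.546 for Mcm3 (p = 0.087, q = 0.253) in the authors' deposited table. Mcm5 and Mcm6 both had a ratio of 0.553 (q = 0.093 and 0.102) and dpa one of 0.631 (q = 0.182) in the authors' deposited table. In total RNA the same comparison gave ratios from 1.04 to 1.34 for these subunits in the authors' deposited table, and the difference between the 2 kinds of column was not tested. The 4 origin recognition genes ranged from 0.663 (Orc2) to 0.718 (Orc1), Mcm10 had 0.713 and dup 0.623 (p = 0.053) in the authors' deposited table. Only geminin among the 13 licensing genes had a ratio over 1, at 1.17 (q = 0.59) in the authors' deposited table.

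BubR1 had the lowest nt.gene ratio of any member with Ph and the smallest q, 0.421 (p = 0.002, q = 0.053) in the authors' deposited table. It was followed in q by CycB at 0.726 (p = 0.003, q = 0.055) and thr at 0.571 (p = 0.005, q = 0.073) in the authors' deposited table. All 11 genes of mitotic entry and exit had ratios under 1, from 0.535 for aur to 0.942 for pim, and 6 of them had p under 0.05 in the authors' deposited table: CycA, CycB, CycB3, fzy, polo and thr. The ratio of fzy, the gene that rose with Pc in total RNA, was 0.566 (p = 0.013, q = 0.111) in the nt.gene columns of the authors' deposited table. Those of stg, cdc2 and ial were 0.622, 0.606 and 0.539 (p = 0.051, 0.224 and 0.055) in the authors' deposited table.

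The genes of S phase control and of the fork were less uniform in these columns. CycE had a ratio of 0.61 (p = 0.016, q = 0.118), Cdk4 of 0.689 (p = 0.031, q = 0.161) and dap of 0.559 (p = 0.087, q = 0.253) with Ph in the authors' deposited table. E2f stood at 0.988, Rbf at 0.881, Dp at 0.856 and CycD at 1.11 there, in the authors' deposited table. RnrL had a ratio of 0.596 (p = 0.04, q = 0.183), while its partner RnrS stood at 0.979 and the clamp gene mus209 at 0.952 in the authors' deposited table. The polymerase genes DNApol-delta and DNApol-alpha180 had ratios of 0.638 and 0.743 (p = 0.079 and 0.088) in the authors' deposited table. Of the spindle genes ncd (0.616, p = 0.039) and Klp61F (0.609, p = 0.052) were lower than pav (0.776) and feo (1.15) in the authors' deposited table, and of the checkpoint and centromere genes Bub3 (0.714, p = 0.039), mad2 (0.799) and cid (0.514) stood under Incenp (0.99) in that authors' deposited table.

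With Sce the nt.gene ratios were also mostly under 1. There 35 of 45 members had a ratio under 1, against 48.5% of all genes, and the median log2 ratio was -0.23 where that of all genes was 0.01. The count at q under 0.05 (authors' deposited table) was 0 lower and 0 higher, where 0.0525% and 0.0656% of all genes were. At the unadjusted level, p under 0.05 in the authors' deposited table, 9 were lower and 0 higher, where 5.29% and 4.62% of all genes were. The 9 genes were Mcm6, RnrL, CycE, Cdk4, CycA, CycB3, polo, BubR1 and Bub3. The smallest q was that of Bub3, 0.149, with a ratio of 0.737, and the lowest ratios were 0.593 for Mcm2 (p = 0.054) and 0.595 for BubR1 (p = 0.008, q = 0.255) in the authors' deposited table. The highest were geminin at 1.58, cid at 1.53 and feo at 1.48, with q-values of 0.649 or more in the authors' deposited table. Both nt.gene comparisons are set against a Mock column, so the lower values with Ph and with Sce may rest on the same control, and a difference between the labelled groups was not tested.

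**Figure D3:**
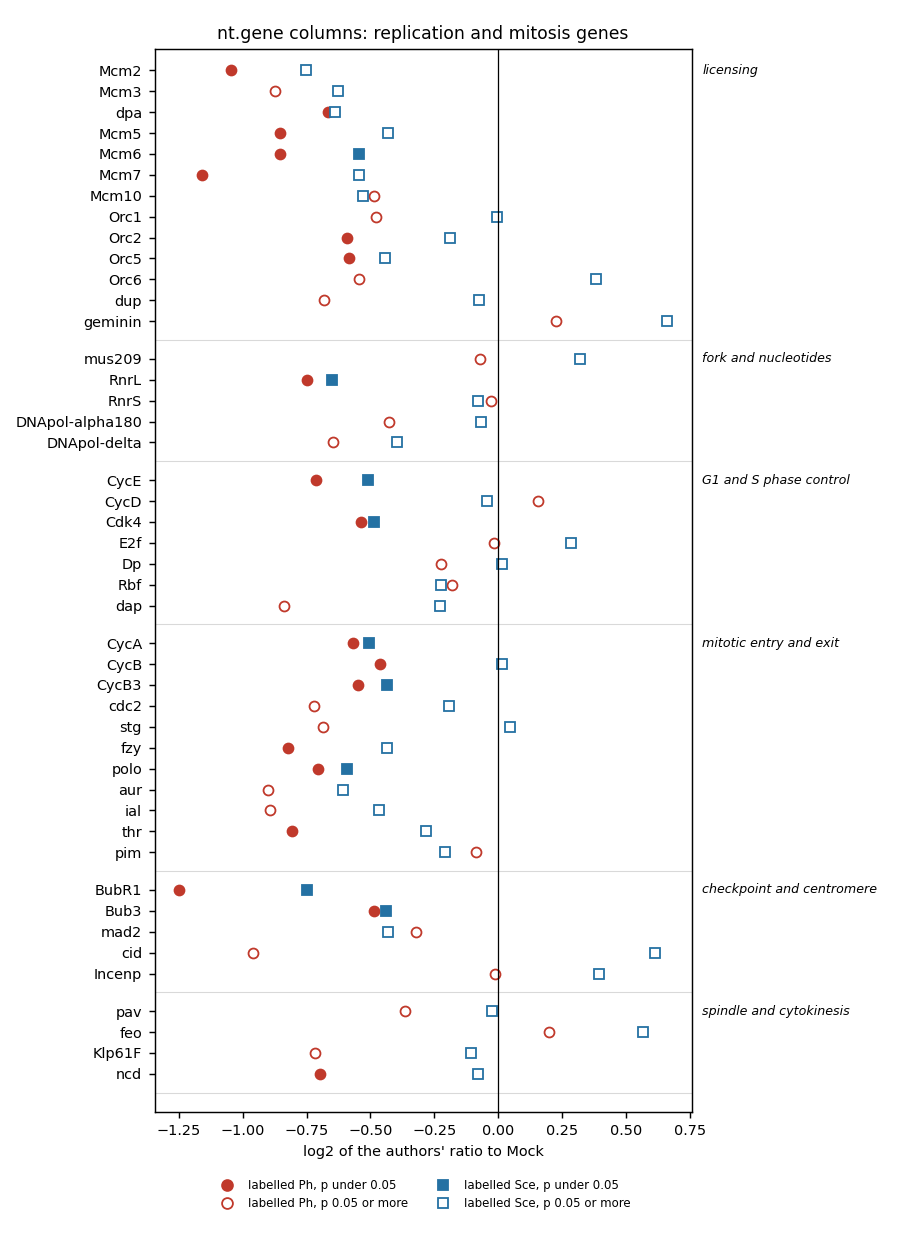
Each row is a gene and each symbol the log2 of the authors' nt.gene ratio to Mock, with circles for the group labelled Ph and squares for Sce; filled symbols have an unadjusted p under 0.05. With Ph 42 of 45 circles lie left of 0, and 19 of them are filled, while geminin, feo and CycD lie right of it.

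The nt.gene counts and the total RNA medians were also taken among genes of higher level. Of the 45 members 36 had a mean level over the 4 groups at or above the median of all genes, 20964. Of those 36, 33 had an nt.gene ratio under 1 with Ph and 15 were lower at an unadjusted p under 0.05 in the authors' deposited table. Of the 3812 genes of all kinds at or above that level, 43.5% had a ratio under 1 and 7.45% were lower at that p in the authors' deposited table. In total RNA the median log2 ratio of the 36 members was 0.058 (Ph), 0.25 (Sce) and 0.104 (Pc). For the 3812 genes it was 0.138, 0.145 and 0.132, above the medians of all listed genes. Within 1.5-fold of Mock lay 97.2%, 88.9% and 94.4% of the 36 members, and 79.9%, 85.6% and 82.3% of the 3812 genes.

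**Figure D4:**
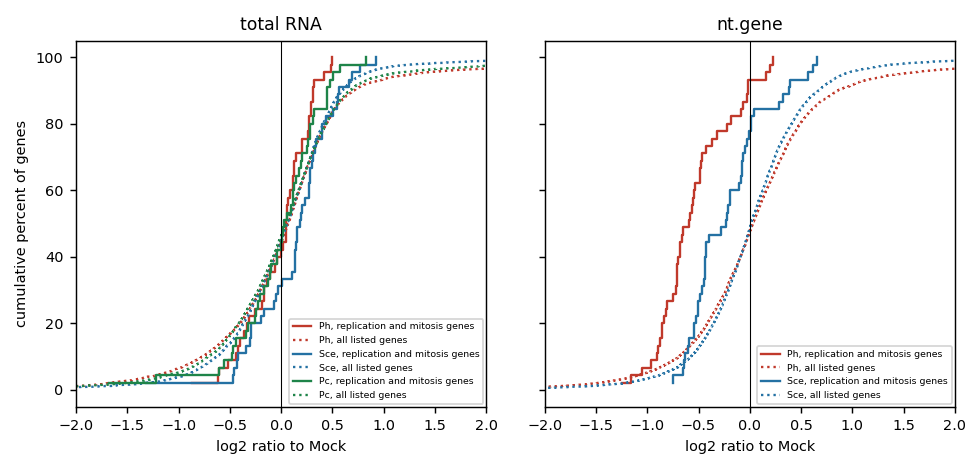
Curves give the cumulative percent of genes against the log2 ratio to Mock, solid for the replication and mitosis genes and dotted for all listed genes, with total RNA on the left (labelled Ph, Sce and Pc) and nt.gene on the right (labelled Ph and Sce); values beyond -2 and 2 are not drawn. In total RNA the solid and dotted curves of Ph and Pc cross near 0, and in nt.gene the solid curve of Ph lies left of the dotted one, with medians of -0.59 and 0.03.

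Other genes of replication and mitosis were read from a wider list of 180 symbols, of which 143 were listed and none is among the members. In total RNA 0 of the 143 rose in any comparison, and 1 fell. Of all genes 3.52% (Ph), 0.236% (Sce) and 3.04% (Pc) rose, and 0.367%, 0.0131% and 0.144% fell. The gene that fell was pnut, a septin gene of cytokinesis. It had an authors' mean of 246029 in Mock, 262144 with Ph, 205284 with Sce and 143971 with Pc. Its ratio with Pc was 0.585 (q = 0.02) in the authors' deposited table. At an unadjusted p under 0.05 in the authors' deposited table, 11 were higher and 1 lower with Ph, 18 and 1 with Sce, and 11 and 1 with Pc. The higher ones make up 7.69%, 12.6% and 7.69% of the list, where 13.9%, 9.27% and 11.8% of all genes were higher, and the lower one is 0.699% of it, where 4.7%, 2.3% and 2.62% of all genes were lower. The smallest p-values belonged with Ph to the myosin light chain gene sqh (ratio 1.63, p = 0.011, q = 0.086) and the anaphase-promoting complex gene Cdc27 (1.66, p = 0.012, q = 0.088) in the authors' deposited table. With Sce they belonged to the centrosome gene cnn (1.86, p = 0.002, q = 0.138) and the formin gene dia (1.63, p = 0.003, q = 0.185) in the authors' deposited table.

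In the nt.gene columns 2 of the 143 were lower with Ph at q under 0.05, where 0.787% of all genes were. They were Ts, which encodes thymidylate synthase and so supplies a DNA precursor (ratio 0.354, q = 0.044), and dia, which acts in cytokinesis (0.608, q = 0.049), in the authors' deposited table. The total RNA of Ts had an authors' mean of 79296 in Mock and 55621 with Ph, and that of dia 60789 and 64445. Of the 143, 97 had an nt.gene ratio under 1 with Ph and 26 were lower at an unadjusted p under 0.05 (18.2%), with 3 higher (2.1%), in the authors' deposited table. Of all genes 47.5% had a ratio under 1, 6.66% were lower and 9.82% higher. The median log2 ratio was -0.27. By class, the 7 condensin and topology genes all had ratios under 1, with a median log2 ratio of -0.49, and the 34 replication factors had a median of -0.39. The 17 kinetochore and checkpoint genes had a median of -0.32, the 45 spindle, centrosome and cytokinesis genes -0.27, the 27 cycle control genes -0.21 and the 13 genes of the anaphase-promoting complex and mitotic kinases -0.05. With Sce 94 of the 143 had a ratio under 1, 18 were lower and 4 higher at an unadjusted p under 0.05 in the authors' deposited table, and 0 passed. These are 65.7%, 12.6% and 2.8% of the list, where 48.5%, 5.29% and 4.62% of all genes were so. At q under 0.05, 0.0525% of all genes were lower and 0.0656% higher with Sce. The smallest p-values there belonged to Ts (0.619, q = 0.107) and to a gene of the chromatin assembly factor (0.633, q = 0.137) in the authors' deposited table.

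Exonic length is the merged length of a gene's annotated exons. It moved with the total RNA ratios, so lengths stand here beside the genes outside the 1.5-fold band. Across 7517 genes with a length in the Ensembl annotation of assembly BDGP6, the Spearman rho of exonic length with the log2 ratio was 0.381 for Ph, 0.373 for Sce and 0.314 for Pc in total RNA. The genes share libraries and are not independent replicates. Across the 43 members with a length it was 0.294, 0.482 and 0.354, and their median exonic length was 2747 bp, where that of all genes was 2152 bp. Of the 9 members outside the 1.5-fold band, those with a low ratio were pim, geminin, cid, CycB3 and stg, with exonic lengths of 978, 1061, 1015, 2883 and 3064 bp. Those with a high ratio were CycE, thr, Mcm10 and fzy, with 5047, 4578, 2820 and 1996 bp. Of those with a low ratio, CycB3 and stg were thus longer than the members' median. Of those with a high ratio, CycE, thr and Mcm10 were longer, and fzy, which rose with Pc, was shorter. In the nt.gene columns rho was 0.027 for Ph and 0.068 for Sce across all genes, and -0.12 and -0.14 across the members. The part of length in the ratios was not tested.

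**Figure D5:**
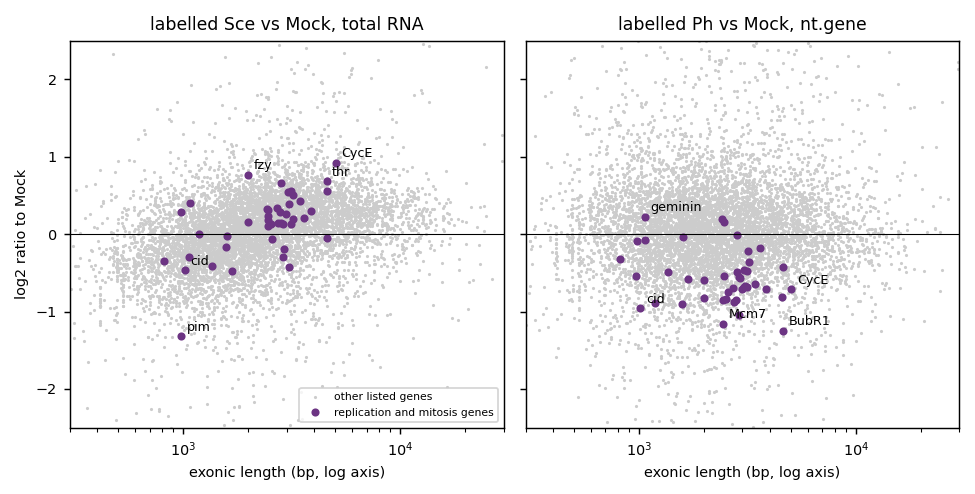
Points give the log2 ratio to Mock against exonic length in bp on a log axis, for total RNA with Sce on the left and nt.gene with Ph on the right, with replication and mitosis genes in purple and other listed genes in grey; points beyond the axes are not drawn. On the left pim, of short exonic length (978 bp), lies low and CycE, of long exonic length (5047 bp), high. On the right most purple points lie under 0 at every length.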

How the data were processed

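RNA was measured in 14 libraries of BG3 cells. The deposited table holds, per the file headers, the authors' mean signal per labelled group and the authors' ratio of each treated group to Mock. It also holds the authors' p-values and q-values, to 3 decimals. The submitters' processing notes name bedtools; the aligner, genome build, normalization, division by gene length, use of strand and statistical test were not given by the sources used here. Without strand, a gene and an antisense or overlapping neighbour could share reads. The table has 0 columns per library, so no model was fitted and no p-value was computed. Another 3 columns, the nt.gene means, correspond to no labelled sample and were left aside. The labels do not say that replicates were separate cultures, so the p-values may measure technical spread alone.

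Log2 ratios of total RNA used a pseudocount of 1, and those of nt.gene the deposited ratio. Counts, medians and shares were computed with pandas 2.3.3 over the members and over all 7624 genes; the Benjamini-Hochberg function was tested on simulated data. Exonic lengths came from Ensembl BDGP6 through RefSeq symbols and synonyms, matched for 43 of 45 members. Members and lists were chosen with earlier results of these data known. Named genes were all members, with full values for calls, for the smallest p-values of each role and for the 5 highest and 5 lowest ratios; of the wider list, genes called or, where none was, the 2 with the smallest p. Alternatives were the call rule, the adjustment, the pseudocount, centring and a level filter. Motif and sequence searches were not run here.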

Additional observations from a re-analysis of the deposited data

How the results depend on the processing

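No paired analysis was possible because the table holds group means without values per library; for the same reason leaving out each replicate was not run. Counts of members called were recomputed with q under 0.10, with an unadjusted p under 0.05, with the Benjamini-Hochberg method applied to the deposited p-values, and with members at or above the median level only. At an unadjusted p under 0.05 the members higher were 3 with Sce and 3 with Pc in total RNA, and the members lower in nt.gene were 19 with Ph and 9 with Sce. With q under 0.10 the members lower in nt.gene with Ph were 4; the other counts were as reported under all 4 settings. The call of fzy with Pc had an adjusted p of 0.037 by the Benjamini-Hochberg method. In settings chosen after the data were seen, p under 0.01 left 4 members lower with Ph and 2 with Sce in nt.gene, and 42 and 35 members lay under the median of all genes. Medians moved by less than 0.1 on the log2 scale under each pseudocount, centring and level filter; centring turned the total RNA medians of Ph and Pc to -0.02 and -0.018, both near 0. Depth is unknown, so what it limits cannot be stated; Pc rests on 2 libraries.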
